A study of Mus musculus with 3 samples.

Results

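Chromosome 15 was described from every call on it in a pair of deposited ChIP-seq region lists, 1 for KAP1 and 1 for H3K9me3. The KAP1 list held 1191 of its 19549 peaks there and the H3K9me3 list 2941 of its 39526 regions, so 4132 of 59075 calls were members. The chromosome was chosen by its measured density of calls, which earlier results of these data put first in both lists, so all densities are descriptions with no test. The cells were C2C12, an established mouse myoblast line of strain C3H, labelled as proliferating myoblasts and grown in DMEM with fetal calf serum. Chromatin was fixed with formaldehyde and sonicated. One library was made with a homemade rabbit polyclonal antibody against Kap1, 1 with a Diagenode antibody against H3K9me3, and 1 without antibody, for which no list is analysed here. All came from the same cell line, and each antibody has 1 library, so no value carries a spread between replicates and no p-value is given. Region lists hold no expression, and the myoblast label was not checked against marker genes.

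KAP1, also named TRIM28, is a corepressor that binds no DNA sequence of its own. KRAB zinc finger proteins bring it to their sites, many of them in transposable elements, where its partner SETDB1 methylates histone H3 to H3K9me3, a mark of heterochromatin. Calls that both lists hold are therefore the places where the corepressor and the mark lie together. KAP1 is also found at sites without the mark, and other methyltransferases lay the mark down without KAP1.

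A call was counted as shared when it had 1 bp or more in common with a call of the other list, and as unshared otherwise. On chromosome 15, 819 KAP1 peaks were unshared and 372 shared, and 2663 H3K9me3 regions were unshared and 278 shared. Shared KAP1 peaks were 31.2% of the KAP1 peaks there (95% Wilson interval 28.7 to 33.9), and 43.9% over all autosomes. Shared H3K9me3 regions were 9.45% (interval 8.45 to 10.6), and 15.3% over all autosomes. Few calls lay near the limit. The smallest overlap was 2 bp and the nearest unshared pair stood 16 bp apart, while 12 shared KAP1 peaks had under 100 bp in common and 5 unshared ones lay within 100 bp of an H3K9me3 region. The median shared KAP1 peak lay wholly inside H3K9me3, with 100% of its length covered, as on the other autosomes. For shared H3K9me3 regions the median covered share was 42.6%, against 50.5% on the other autosomes.

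The extra calls of chromosome 15 were unshared calls of both lists, while shared calls stood within the range of the other autosomes in number per Mb. Unshared KAP1 peaks numbered 8.15 per Mb on chromosome 15 (exact 95% Poisson interval 7.60 to 8.73). The other 18 autosomes together had 4.05 per Mb, and singly they ran from 3.58 on chromosome 9 to 4.87 on chromosome 13. The ratio of chromosome 15 to the others was 2.01 (exact 95% interval 1.87 to 2.16). Unshared H3K9me3 regions numbered 26.5 per Mb (interval 25.5 to 27.5), against 12.4 over the other autosomes, a ratio of 2.14 (interval 2.06 to 2.23). Here too chromosome 13 came next, with 17.5 per Mb, and chromosome 7 was lowest with 8.75. For both kinds of unshared call, chromosome 15 ranked 1 of 19. It was chosen by its density of calls, most of them unshared, so this rank is no separate support.

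Shared calls gave another order. Shared KAP1 peaks numbered 3.70 per Mb (interval 3.34 to 4.10), against 3.29 over the other autosomes, and chromosome 15 ranked 4 of 19, below chromosome 13 with 4.08 and chromosome 17 with 4.05. The ratio was 1.13 (interval 1.01 to 1.25). Shared H3K9me3 regions numbered 2.77 per Mb (interval 2.45 to 3.11), against 2.32, and chromosome 15 ranked 3. That ratio was 1.19 (interval 1.05 to 1.35), and counting as shared only the regions covered by KAP1 peaks over at least 50% of their length gave 0.982 (interval 0.809 to 1.18). By covered length the contrast was less clear-cut for H3K9me3. Unshared H3K9me3 covered 23.2 kb per Mb, 2.42 times the 9.56 kb of the other autosomes, and the autosome with the next highest value was chromosome 17 with 16.7 kb. Unshared KAP1 covered 5.78 kb per Mb, 2.10 times the other autosomes, and shared KAP1 3.03 kb, 1.09 times. Shared H3K9me3 covered 6.87 kb, 1.30 times the other autosomes, and ranked 1 ahead of the 6.68 kb of chromosome 13. These intervals cover counting error over calls only. Neighbouring calls are not independent, and the read depth of neither library is known.

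**Figure D1:**
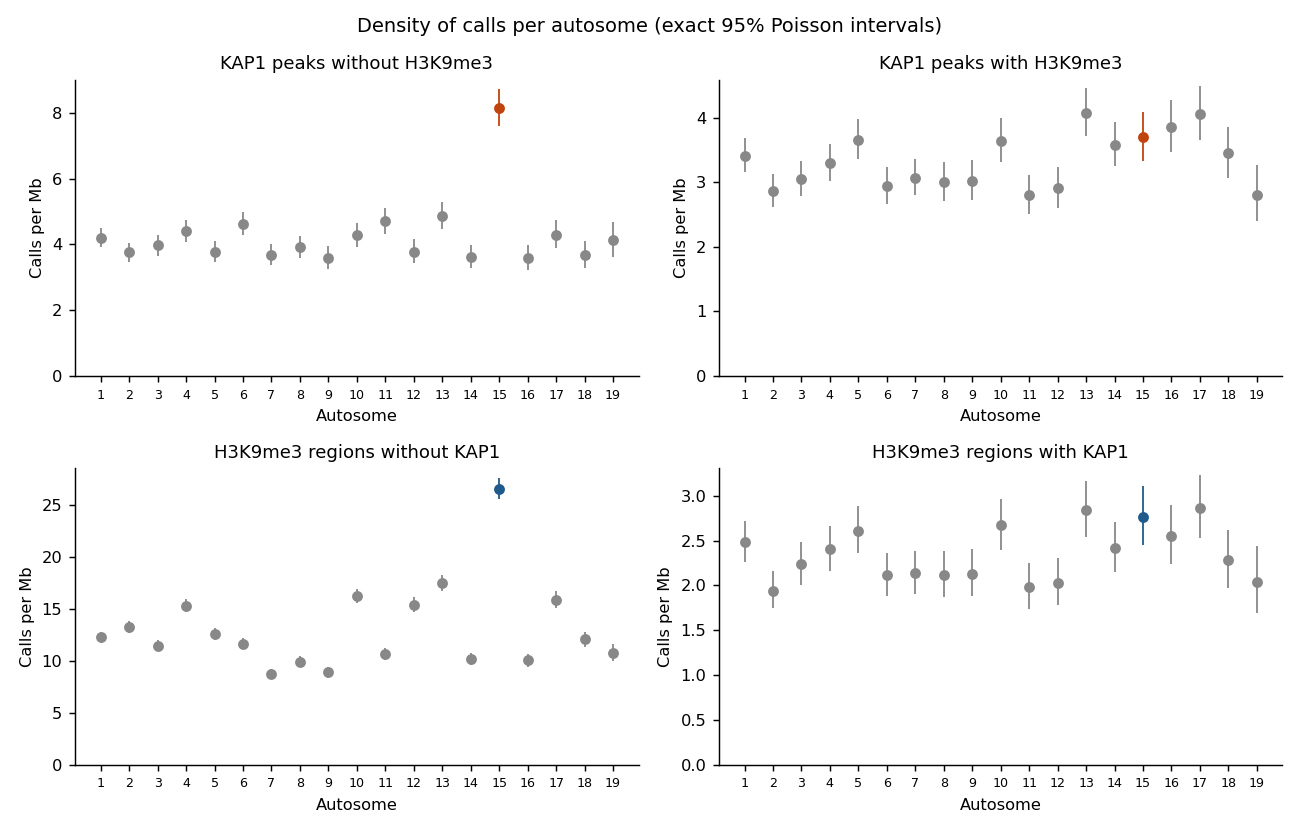
Calls per Mb (y axis) on each of the 19 autosomes (x axis) for unshared and shared calls of each list. Points are densities, bars are exact 95% Poisson intervals and chromosome 15 is coloured. Its unshared KAP1 peaks (8.15 per Mb) and unshared H3K9me3 regions (26.5 per Mb) stand above all other autosomes, and its shared calls rank 4 and 3.

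For unshared calls the ratio was larger in the upper score levels than in the lowest one, but not in the top 1% of either list, where calls on chromosome 15 were few. Each list was split over the autosomes into 5 score levels of near equal size. For unshared KAP1 peaks the ratio was 1.54 (interval 1.31 to 1.80) in the lowest level, with scores of 70 up to 80.9, and 1.68 and 2.07 in the next ones. It was 2.90 (interval 2.47 to 3.39) in level 4, where scores ran from 123.3 to 196.4, and 2.51 (interval 2.05 to 3.04) in level 5. The interval of level 4 did not overlap that of level 1, and chromosome 15 ranked 1 of 19 at all 5 levels. Among the autosomal KAP1 peaks in the top 1% by score, only 3 lay on chromosome 15 and 179 on the other autosomes. All 3 were unshared, as were 93.9% of those on the other autosomes. The ratio of unshared peaks was 0.411 (interval 0.0840 to 1.22), so few calls stand behind it.

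For unshared H3K9me3 regions the ratio was higher at each of the 5 levels than at the one before, from 1.52 (interval 1.37 to 1.68) over 2.00, 2.10 and 2.47 to 2.99 (interval 2.72 to 3.29) in level 5, with scores of 115 and above. Shared KAP1 peaks went the other way, from 1.36 (interval 1.02 to 1.79) in level 1 to 1.02 (interval 0.833 to 1.25) in level 5, and these intervals overlapped. Shared H3K9me3 regions showed no steady order, with 0.792 in level 2, 1.48 in level 3 and 1.25 (interval 1.06 to 1.46) in level 5. In the top 1% of the list by score, 4 unshared regions lay on chromosome 15, a ratio of 0.912 (interval 0.244 to 2.41), well below the 2.99 of level 5 though the interval is wide. The 19 shared regions there gave 1.78 (interval 1.05 to 2.84).

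**Figure D2:**
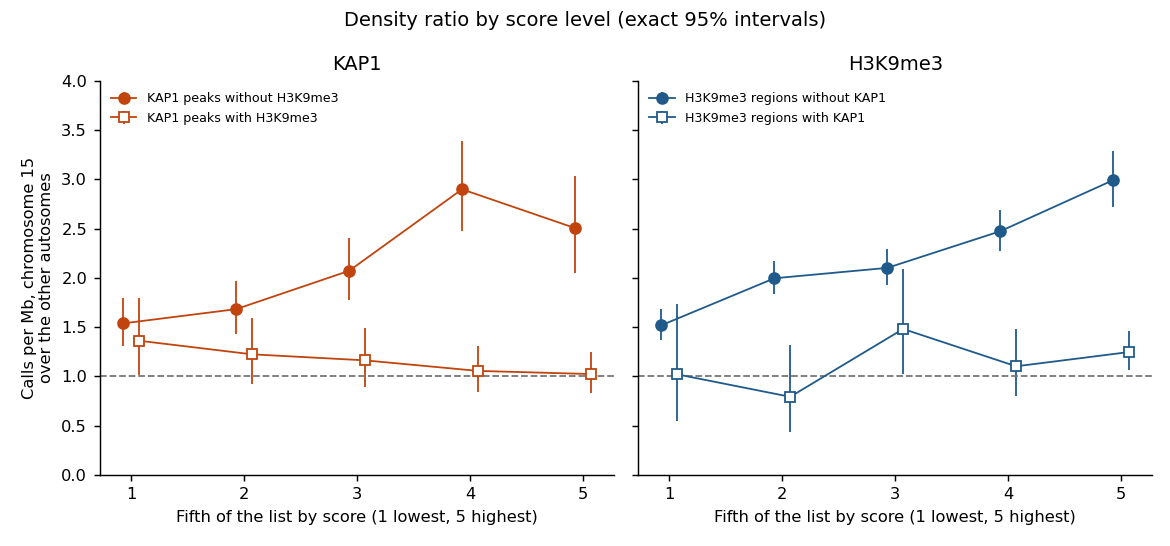
Density ratio of chromosome 15 over the other autosomes (y axis) in the 5 score levels of each list (x axis), with exact 95% intervals. Filled circles are unshared and open squares shared calls, and the dashed line marks equal density. Unshared calls stand at 1.54 and 1.52 in the lowest level and at 2.51 and 2.99 in the highest, while shared calls run from 0.792 to 1.48.

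At equal score level, the share of KAP1 peaks on H3K9me3 was lower on chromosome 15 in levels 3 to 5. The intervals cover counting error over peaks of 1 library, and peaks are no replicates. An excess of unshared peaks lowers this share by itself. In level 4 the density ratio was 2.90 for unshared and 1.06 for shared peaks. In level 4, 32.6% of chromosome 15 peaks were shared (Wilson interval 27.3 to 38.4), against 57.1% on the other autosomes (interval 55.4 to 58.7). In level 5 the shares were 47.1% (interval 40.6 to 53.6) and 68.5% (interval 66.9 to 70.1). In the lowest level they were 24.4% (interval 19.2 to 30.5) and 26.8%, within the interval. For H3K9me3 regions of level 5, 25.9% were shared on chromosome 15 (interval 22.7 to 29.5), against 45.7% elsewhere (interval 44.5 to 46.9). Their number per Mb with KAP1 was not lower, at a ratio of 1.25. The lower share came with more unshared regions, not with fewer shared ones.

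Scores and widths were also shifted for unshared calls. The median unshared KAP1 peak scored 104.3 on chromosome 15 and 94.97 on the other autosomes, whose medians ran from 90.6 to 101.4. It was 641 bp wide, against 598 bp, with medians from 583 to 618.5 bp elsewhere. Chromosome 15 thus had the highest median of the autosomes in both measures, but at the 90th percentile of score it ranked 6, with 233.5, and chromosome 13 led with 1144. The median unshared H3K9me3 region scored 55 and was 630 bp wide, against 47 and 538 bp, and both medians ranked 1. The relative shift in width was largest among narrow regions. At the 10th percentile of width the values were 224 and 176 bp, 1.27 times, and at the 90th percentile 1821 and 1559 bp, 1.17 times. Score and width of H3K9me3 regions rose together over the whole list, with a Spearman's rho of 0.987. Their shifts are therefore not separate observations, and equal score largely fixes width. Within score levels 2 to 5 the widths of unshared H3K9me3 regions were close. Those of level 5 had a median width of 1894 bp on chromosome 15 and 1896 bp elsewhere, while those of level 1 had 203 and 184 bp. With the lower-scoring 50% of each list left out, the medians of unshared calls were 1.01 times those elsewhere for KAP1 score and width, and 1.06 and 1.03 times for H3K9me3, so most of the shift was no longer seen.

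Shared KAP1 peaks had a median score of 127.0, against 136.3 on the other autosomes, and ranked 16 of 19. The ratio of the medians was 0.932, with a 95% interval of 0.820 to 1.02 that includes 1, and it was 1.01 in the upper 50% by score. Shared H3K9me3 regions had a median score of 169 and width of 1914 bp, against 144 and 1669 bp. These ratios of 1.17 (interval 0.938 to 1.44) and 1.15 (interval 0.883 to 1.35) also had intervals that include 1. Their upper quartiles, at 353.8 and 3648 bp, ranked 1. Those of score level 5 had a median width of 3313 bp, against 2923 bp elsewhere.

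Counts along the chromosome were taken in 101 windows of 1 Mb, by the midpoint of each call. The last window held only the end of the chromosome, to base 103487677 of build mm9. Nearly every window held more unshared H3K9me3 regions than the median window of the other autosomes, which held 10. These were 97 of the 101 windows (96.0%), against 49.1% of windows on the other autosomes, and 3 held fewer. No window was empty. The lowest count, 6, was in the short last window, which is 1 of these 3, and the lowest of the other windows held 7. More than 20 regions, the 90th percentile of the other autosomes, were found in 64 windows (63.4%), while 11.4% of all autosomal windows passed that limit. The ratio of chromosome 15 to the other autosomes was 3.00 at the 10th percentile of windows (12 regions against 4), 2.40 at the median (24 against 10) and 2.05 at the 90th percentile (41 against 20). The ratio was thus larger at the low percentiles than at the high ones, and the difference in regions smaller. These percentiles compare different windows, so they do not show how far any window was raised. By position, the thinnest 10 Mb block, from 13 to 23 Mb, had the lowest ratio, 1.19.

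Unshared KAP1 peaks were less evenly spread. Of the 101 windows, 73 (72.3%) held more than the 3 of the median window elsewhere, 22 held fewer and 2 held none. On the other autosomes 48.1% of windows held more than 3. More than 7, the 90th percentile of the other autosomes, were found in 45 windows (44.6%), beside 11.2% of all autosomal windows. The ratio was 2.00 at the 10th percentile (2 peaks against 1), 1.5 at the 25th (3 against 2), 2.33 at the median (7 against 3) and 2.29 at the 90th (16 against 7). At the lower percentiles the counts are small and the ratios coarse. Shared calls had the same median as elsewhere for KAP1, 3 per window, and 3 against 2 for H3K9me3. Windows above the 90th percentile were 9.90% for shared KAP1, beside 9.60% of all autosomal windows, and 10.9% for shared H3K9me3, beside 7.34%.

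The profile was divided into segments of constant mean by a least-cost split with segments of at least 3 windows. Shared KAP1 peaks and shared H3K9me3 regions each formed a single segment along the whole of chromosome 15. The other autosomes had 1 to 9 segments for shared KAP1 and 1 to 4 for shared H3K9me3, and 5 and 12 of the 18 had a single one. In the upper 50% by score, however, shared KAP1 peaks formed 3 segments, with 3 peaks in all from 61 to 71 Mb. Unshared KAP1 peaks formed 10 segments, against 1 to 9 elsewhere (median 3), and unshared H3K9me3 regions 9, against 3 to 9 (median 5). A denser profile lets smaller steps be found, so these numbers are not comparable at unequal density. With the cost of a step doubled, 4 segments were left for each kind of unshared call, and the KAP1 segment from 75 to 86 Mb was among them.

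For unshared KAP1 the densest segment ran from 75 to 86 Mb, with 18.5 peaks per Mb (interval 16.0 to 21.2), 4.55 times the other autosomes. All 11 windows in it held between 11 and 34 peaks. The segment before it, from 63 to 75 Mb, held 5.42 per Mb, and the one after it, from 86 to 97 Mb, 6.36. A second dense segment ran from 97 Mb to the end, with 17.4 per Mb (interval 14.4 to 20.9). Smaller rises were found from 36 to 39 Mb, with 14.3 per Mb, and from 54 to 63 Mb, with 10.4. In contrast, the segment from 13 to 25 Mb held 2.58 per Mb (interval 1.76 to 3.67), which is 0.638 times the other autosomes (interval 0.433 to 0.906). The segment from 39 to 54 Mb held 3.80, a ratio of 0.938 (interval 0.710 to 1.22). No excess in unshared KAP1 peaks was measured in either, while unshared H3K9me3 stood at 15.5 and 20.6 per Mb there, above the 12.4 of the other autosomes.

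For unshared H3K9me3 the densest segments were from 86 to 89 Mb, with 71.0 regions per Mb (interval 61.8 to 81.2), and from 92 to 95 Mb, with 73.7 (interval 64.3 to 84.0). They were 5.74 and 5.96 times the other autosomes. Between them, from 89 to 92 Mb, stood 32.3 per Mb. A further 42.3 per Mb stood from 95 to 99 Mb, and 17.4 from there to the end. With the cost of a step doubled, or with 2 Mb windows, the stretch from 86 to 98 Mb formed a single segment of 55.75 per Mb, so its division is not fixed. The proximal part was flatter. It held 18.05 per Mb from 3 to 25 Mb, 28.9 from 25 to 39 Mb, 20.6 from 39 to 72 Mb and 28.7 from 72 to 86 Mb. The thinnest segment, at the distal end, was still at 1.41 times the other autosomes (interval 1.11 to 1.75).

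The lists changed at the same windows in places, but not always in the same direction. Both unshared profiles had a step at 25 Mb, upward, and at 39 Mb, downward. At 86 Mb unshared KAP1 went from 16 peaks in the window before to 2 in the window after, while unshared H3K9me3 went from 28 to 77 regions. The segments from 86 to 89 Mb and 92 to 95 Mb, the densest in H3K9me3, held 4.33 and 4 unshared KAP1 peaks per Mb, near the 4.05 of the other autosomes. From 99 Mb to the end, where unshared KAP1 held 16.0 per Mb, unshared H3K9me3 formed its thinnest segment, with 17.4 per Mb. It was lower still, at 15.5 per Mb, over the stretch from 13 to 25 Mb, where unshared KAP1 was also thinnest. Over the 101 windows, unshared KAP1 and unshared H3K9me3 counts had a Pearson's r of 0.0247 and a Spearman's rho of 0.212. The other autosomes had rho from 0.0781 to 0.381. Windows share a library and a chromosome and are no replicates, so these values are descriptions.

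**Figure D3:**
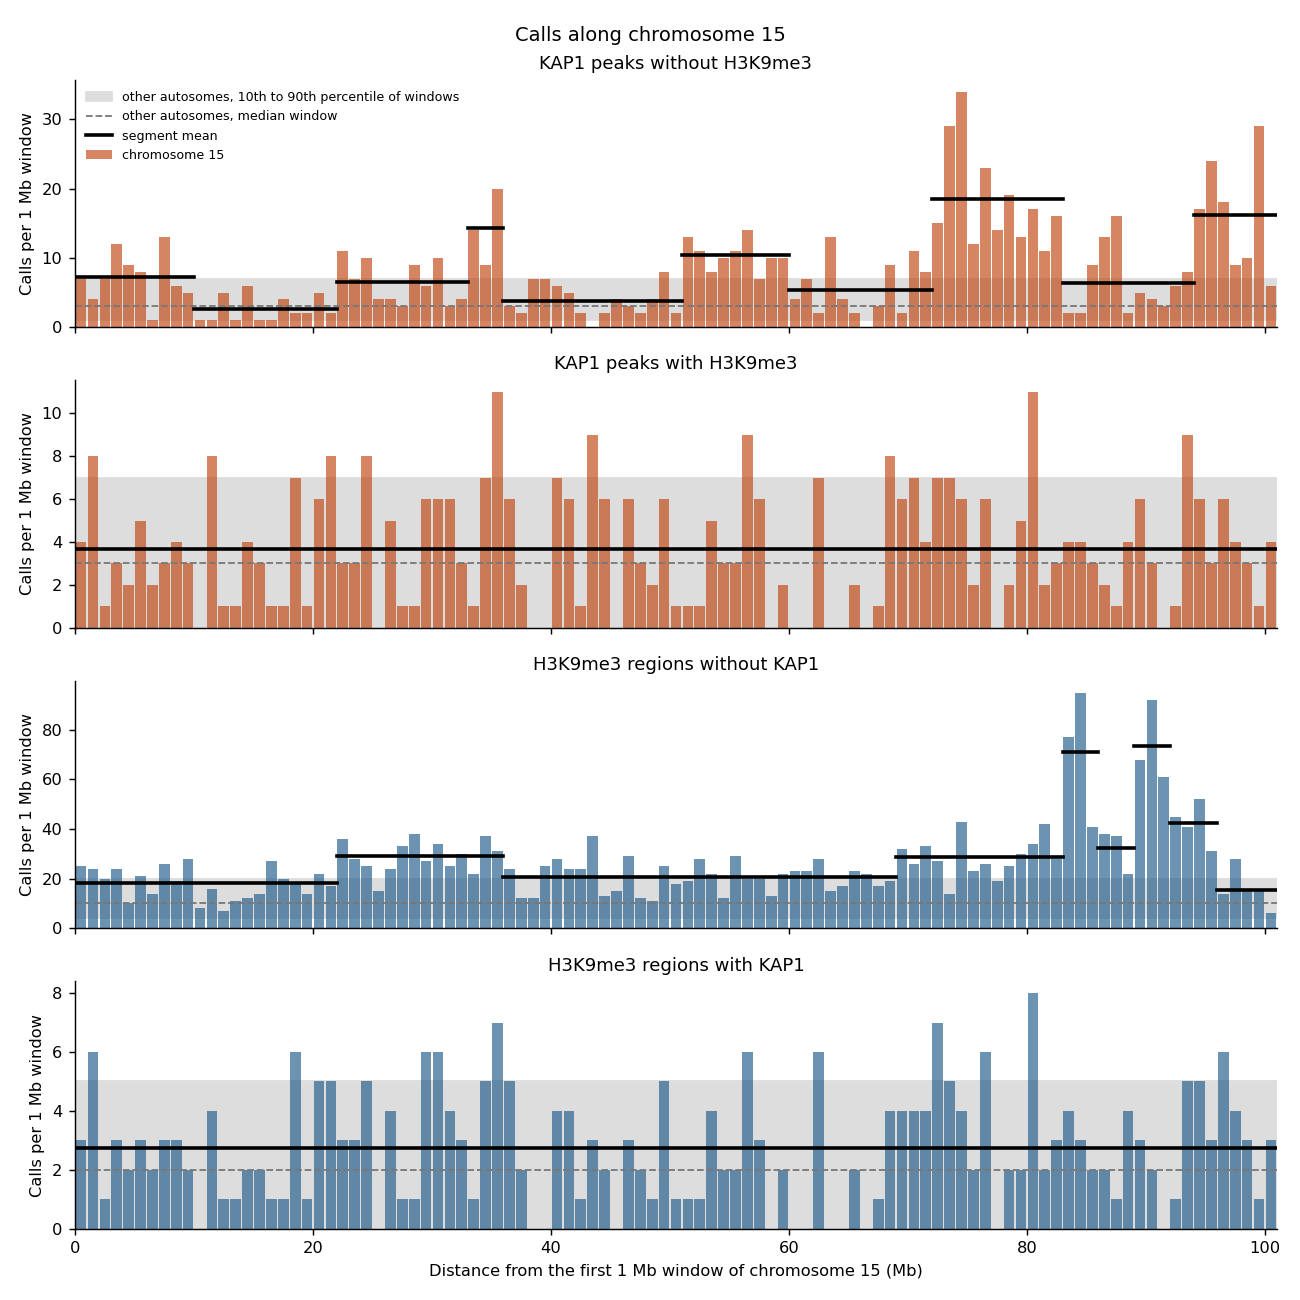
Calls per 1 Mb window (y axes) by distance from the first window (x axis, Mb), which starts at 3 Mb of the chromosome. Bars are chromosome 15, black lines segment means per window, the dashed line the median window of the other autosomes and the grey band their 10th to 90th percentile. The KAP1 segment of 18.5 peaks per Mb lies at 72 to 83 Mb on this axis. The H3K9me3 segments of 71.0 and 73.7 regions per Mb lie at 83 to 86 and 89 to 92 Mb. Each kind of shared call forms a single segment, in thinner profiles where only larger steps can be found.

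The window with most unshared KAP1 peaks was 77 to 78 Mb, with 34 (interval 23.5 to 47.5), and only 5 of 2325 windows of the other autosomes held as many. It was followed by 76 to 77 Mb and 102 to 103 Mb with 29 each. Their peaks were not of extreme score. The medians were 99.9, 117.6 and 94.1 and the highest was 463.5. The windows with most unshared H3K9me3 regions were 87 to 88 Mb with 95 (interval 76.9 to 116), 93 to 94 Mb with 92 and 86 to 87 Mb with 77. Each held 2 to 4 unshared KAP1 peaks. Regions in the first covered 110.6 kb, with a median width of 728 bp, and those from 93 to 94 Mb covered 66.4 kb, with a median of 483.5 bp. Of the other autosomes' windows, 11 held at least 92 regions. For shared calls, the windows from 38 to 39 Mb and 83 to 84 Mb held 11 KAP1 peaks each, and as many or more were held by 65 windows elsewhere. Next came 46 to 47 Mb, 59 to 60 Mb and 96 to 97 Mb, tied at 9 shared KAP1 peaks, beside 0, 14 and 8 unshared ones. The same 2 windows held 7 and 8 shared H3K9me3 regions, and 75 to 76 Mb held 7.

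The highest-scoring unshared KAP1 peaks were at 91736877 to 91741018, 31105433 to 31106758 and 57806798 to 57808055, all scored 3100 and tied for rank 9 in the whole list. Many peaks share this score, which was also the median of the 179 peaks in the top 1% on the other autosomes. Of the 3 on chromosome 15, the first was 4142 bp wide and lay 5.61 kb from the nearest H3K9me3 region. The others lay 6.48 and 40.0 kb away. The highest-scoring shared KAP1 peak was at 86025003 to 86025933, with a score of 1223 and 40.3% of its length in H3K9me3. The next, at 58996490 to 58999067 (score 989.6) and 59262923 to 59266821 (score 905.0), were covered to 100% and 94.9%. None of the shared peaks was in the top 1% of the list, where 6.15% of peaks on the other autosomes were shared.

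Among H3K9me3 regions, the highest-scoring shared one spanned 14500 bp at 76002796 to 76017295, with a score of 2232, rank 12 of the whole list. It held 3 KAP1 peaks, which covered 21.4% of it, and lay in the segment densest in unshared KAP1. The others, at 34154125 to 34163582 and 27215206 to 27226628, held 3 KAP1 peaks each. The highest-scoring unshared region spanned 12409 bp at 96092043 to 96104451. Its score was 1392, and the closest KAP1 peak stood 11.4 kb away. The next, at 35322768 to 35331928, scored 892. Another at 87227840 to 87236969 scored 667. It belonged to the window with most unshared H3K9me3, and no KAP1 peak was nearer to it than 96.4 kb.

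Evenness was described by the ratio of each 10 Mb block to the mean density of the other autosomes, whose own blocks vary too. The ratios of 10 Mb blocks were not equal. For unshared KAP1 they ran from 0.592 (interval 0.379 to 0.882) at 13 to 23 Mb to 4.39 (interval 3.77 to 5.10) at 73 to 83 Mb. These blocks held 2.4 and 17.8 peaks per Mb, a 7.42-fold difference, while 220 such blocks on the other autosomes ran from 1.7 to 14.2, with their 10th and 90th percentiles at 2.6 and 5.41. Of the 10 blocks, 7 were above that 90th percentile, and 2, from 13 to 23 Mb and 43 to 53 Mb, were below the median block elsewhere. For unshared H3K9me3 the ratios ran from 1.19 (interval 1.00 to 1.40) at 13 to 23 Mb to 3.90 (interval 3.55 to 4.26) at 83 to 93 Mb. In all 10 blocks the density was above the median block elsewhere, and in 9 above the 90th percentile of 16.5 per Mb, though the densest block elsewhere held 65.1. Between 23 and 83 Mb the H3K9me3 ratio stayed between 1.64 and 2.15. Shared calls had ratios of 0.730 to 1.40 for KAP1 and 0.734 to 1.55 for H3K9me3.

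The distal part carried much of the difference. In the proximal 50.2 Mb the ratios were 1.34 for unshared KAP1 (interval 1.18 to 1.51) and 1.77 for unshared H3K9me3 (interval 1.66 to 1.88), and in the distal 50.2 Mb 2.68 (interval 2.46 to 2.92) and 2.52 (interval 2.39 to 2.65). Shared H3K9me3 regions numbered 139 in each. Without the 3 KAP1 segments over 1.5 times the mean of the chromosome, which held 43.8% of the unshared peaks, the ratio was 1.42 (interval 1.29 to 1.56). Without the 3 such H3K9me3 segments, which held 22.6% of the unshared regions, it was 1.84 (interval 1.76 to 1.92). These settings were added with the profile already known. An excess was measured outside the dense segments as well.

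In each of 4 parts of the chromosome of equal length, the ratio of unshared calls was higher at higher scores. The KAP1 intervals overlapped in the proximal parts, however. The most proximal part had an unshared H3K9me3 ratio of 1.27 (interval 1.09 to 1.47) in score levels 1 and 2 and 2.10 (interval 1.82 to 2.40) in levels 4 and 5. The most distal had 2.51 (interval 2.25 to 2.79) and 4.16 (interval 3.77 to 4.58). For unshared KAP1 the most proximal part had 1.23 (interval 0.944 to 1.57) and 1.68 (interval 1.23 to 2.25), and the most distal 2.09 (interval 1.71 to 2.53) and 4.28 (interval 3.52 to 5.15). The spread of counts beyond counting error, as a coefficient of variation over 1 Mb windows, was 0.738 for unshared KAP1 and 0.545 for unshared H3K9me3. It ranked 7 and 10 of 19 autosomes, inside the range of 0.345 to 1.92 and of 0.361 to 1.69 elsewhere. For shared KAP1 it was 0.557, below the 0.584 of the lowest other autosome. In this measure 6 and 9 autosomes were less even than chromosome 15 in their unshared calls. By variance over mean, which grows with density, chromosome 15 ranked 4 with 5.42 for unshared KAP1 and 5 with 8.84 for unshared H3K9me3. The correlation between neighbouring windows was 0.463 for unshared KAP1, above the 0.390 of the highest other autosome, and 0.590 for unshared H3K9me3, within the 0.0440 to 0.765 elsewhere. Counting error lowers this correlation more in thinner profiles, so it too is not comparable at unequal density. Copy number along the chromosome was not tested, since the coverage of the library without antibody is not analysed here.

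**Figure D4:**
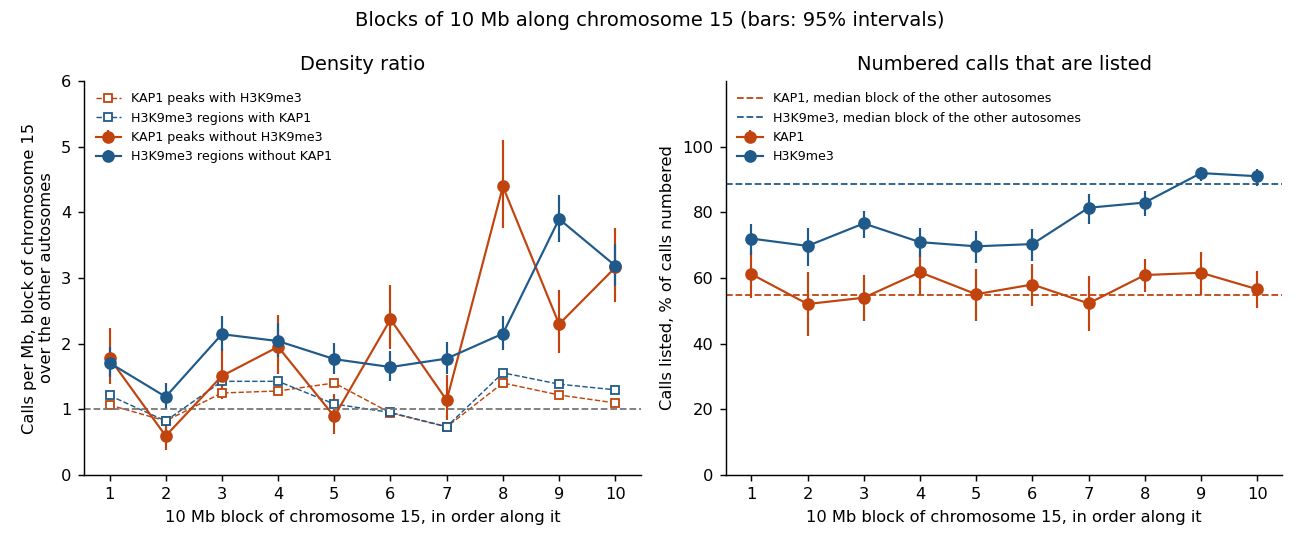
Left, density ratio of 10 Mb blocks of chromosome 15 over the other autosomes (y axis) in order along the chromosome (x axis). Filled circles are unshared calls with exact 95% intervals, open squares shared calls, and the dashed line equal density. Right, calls listed as a percentage of calls numbered in each block, with 95% Wilson intervals and the median block of the other autosomes dashed. Unshared KAP1 runs from 0.592 to 4.39 and unshared H3K9me3 from 1.19 to 3.90. The H3K9me3 percentage runs from 69.6% to 92.0%.

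Median gaps between calls were shorter on the denser chromosome 15, but the share of close gaps did not follow the density throughout. The median gap from a KAP1 peak to the next was 28.2 kb on chromosome 15 and 50.7 kb on the other autosomes, but gaps within 10 kb were 35.6% and 35.4%, and those within 1 kb 12.9% and 16.9%. For H3K9me3 the median gap was 14.8 kb, against 28.0 kb. Here gaps within 10 kb were a larger share on chromosome 15, 41.6% against 34.5%, and those within 1 kb 11.1% against 12.5%. From an unshared KAP1 peak to the closest H3K9me3 region the median distance was 11.6 kb, against 19.7 kb elsewhere, beside the higher H3K9me3 density. From an unshared H3K9me3 region to the closest KAP1 peak it was 44.1 kb, against 50.0 kb.

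The calls carry running numbers in their names, which increase along each chromosome and skip some values. Read as a running index, the numbers give how many calls were numbered in each stretch and how many of them are listed. Numbers skipped between the last call of a chromosome and the first of the next belong to neither. Chromosome 15 spans 2064 KAP1 numbers, of which 1191 are listed (57.7%, Wilson interval 55.6 to 59.8). On the other autosomes 53.9% were listed, from 51.6% on chromosome 3 to 56.8% on chromosome 17. Numbered KAP1 calls stood at 20.5 per Mb, 1.51 times the other autosomes (interval 1.44 to 1.58). The numbered set was also dense on chromosome 15, and its listed share was above that of every other autosome, though its interval reached below the highest of them.

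For H3K9me3 the order was reversed. Chromosome 15 spans 3727 numbers, of which 2941 are listed (78.9%, interval 77.6 to 80.2), while 85.5% were listed on the other autosomes, from 76.0% on chromosome 4 to 91.5% on chromosome 11. The 786 numbers not listed were 3.14 times as dense as elsewhere (interval 2.91 to 3.39), and all numbered calls 2.16 times (interval 2.09 to 2.23). The listed share was not even along the chromosome. In the proximal 50.2 Mb 71.9% were listed (interval 69.8 to 74.0) and in the distal 50.2 Mb 84.9% (interval 83.3 to 86.4). Blocks of 10 Mb ran from 69.6% at 43 to 53 Mb to 92.0% at 83 to 93 Mb, and 6 of 10 were below 79.2%, the 10th percentile of 220 blocks elsewhere. Numbered H3K9me3 calls ranged from 23.8 to 55.9 per Mb over these blocks, 2.35-fold, and listed calls from 16.6 to 51.4, 3.10-fold. The listed profile was steeper toward the distal end than the numbered one. What removed the numbers is not given in the sources used here, and its part in the profile was not tested.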

How the data were processed

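KAP1 and H3K9me3 were profiled by ChIP-seq in proliferating C2C12 cells, 1 library each. The submitters' processing notes name Bowtie2 2.2.1 and the build mm9. The deposited lists give chromosome, start, end, name and a score per call. Per the deposited values, the KAP1 score has decimals and no value under 70, and the H3K9me3 score is a whole number from 11 to 4360 that followed region width, with a Spearman's rho of 0.987. KAP1 names have the form MACS writes. The meaning of the scores, the H3K9me3 caller, all settings, use of a control and read depth were not given in the sources used here. No score was compared between lists.

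The members and lists were chosen with earlier results of these data known. Positions were counted from 1. Densities used each chromosome's span from its first to its last called base in the pooled lists, 100.5 Mb on chromosome 15 and 2314 Mb on the other 18 autosomes. Ratio intervals are exact conditional binomial, densities exact Poisson, shares Wilson and medians from binomial ranks of the chromosome 15 calls, all at 95%. Segments minimised the Poisson cost of 1 Mb counts plus 3 times the natural log of the number of windows per step, and this was tested on simulated profiles. Extra variation is the square root of variance minus mean, over the mean. Numbered calls are the last minus the first number in a stretch plus 1. By rule, the 3 highest-scoring calls and the 3 densest windows of each class are named, with windows at steps. Runs of over 2 empty windows were to be named, and none was found. No mm9 sequence or annotation was used, so no gene is named and no sequence printed. For score limits, sharing was decided on the full lists. Merged lists were compared anew. Alternatives were other overlap limits, score limits, merged calls, other lengths, windows and costs. Python 3.11.15, numpy 2.4.6, pandas 2.3.3, scipy 1.17.1 and matplotlib 3.10.9 were used.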

Additional observations from a re-analysis of the deposited data

How the results depend on the processing

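The density ratios of unshared calls stayed above 1 under every alternative run. Every alternative used the same lists by whose density this chromosome was chosen, so none is separate support. With calls in the upper 50% by score the ratios were 2.60 for KAP1 and 2.55 for H3K9me3, and as ratios of median windows 2.33 and 2.40. Leaving out the dense segments of chromosome 15, a setting chosen after seeing the data, gave 1.42 and 1.84. Ratios of median windows for shared calls were 1.00 for KAP1 and 1.5 for H3K9me3, where counts of 2 or 3 make the value coarse. With at least 50% of the region covered, the shared H3K9me3 ratio was 0.982. The share of chromosome 15 KAP1 peaks that were shared was 26.5% with 50% covered, 36.8% within 1 kb, 36.4% in the upper 50% by score and 28.6% after merging calls within 1 kb. For H3K9me3 regions it was 3.94%, 12.1% and 14.1% under the first 3 of these. These shares were taken on chromosome 15 alone, with no counterpart over all autosomes. The autosomal shares of 43.9% and 15.3% hold for the full lists at the 1 bp limit, so they are not comparable. Doubling the cost of a step left 4 segments for unshared KAP1 and 4 for unshared H3K9me3. In the upper 50% by score unshared KAP1 had 4, and shared KAP1 had 3, with 3 peaks in the 10 windows from 61 to 71 Mb. The densest unshared KAP1 segment began between 73 and 75.5 Mb under all 5 alternatives. The densest unshared H3K9me3 segment was less fixed. It ran from 92 to 95 Mb as reported and after merging, from 86.5 to 88.5 Mb with 500 kb windows, from 86 to 89 Mb in the upper 50% by score, and from 86 to 98 Mb with 2 Mb windows or doubled cost. Each setting changes which calls or windows enter, and beyond that the cause was not tested. Of the other values of this kind, 44 stayed within their interval or within 1.5 times the count. No paired analysis was possible because each antibody has 1 library, and no replicate could be left out. Since read depth is unknown, a stretch without a call cannot be read as lacking signal.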
